A study of Mus musculus with 4 samples.

Results

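The cells described here were Tnmd+ mesenchymal cells of injured tibial muscle at 7 days post injury (dpi). They were chosen by the raw counts of unique molecular identifiers (UMIs, each standing for 1 captured RNA molecule) in the 7 dpi library. A cell was a member when at most 10% of its UMIs were mitochondrial, it held at least 1 Tnmd UMI, at least 10 Col1a1 UMIs and no UMI of Ptprc or Thbs4, and Acan, Col9a1, Hapln1 and Snorc together gave at most 1 UMI. This gate kept 499 of the 23752 cells of the library, out of 62665 cells in 4 libraries. Every library was made from tibial muscle of Nse-Bmp4 mice on the C57BL/6 strain, 6 to 8 weeks old, in which the neuron-specific enolase promoter of the rat drives a murine Bmp4 cDNA. The 4 libraries were Uninjured muscle and muscle at 1, 3 and 7 dpi with cardiotoxin, and each was a single pool of 3 muscles. Time point and library cannot be told apart, and cells are not replicates, so no test between conditions was possible and each interval below is a 95% interval that covers counting error only.

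Tnmd encodes tenomodulin, a transmembrane protein of tendon and ligament cells with a BRICHOS domain, and its expression in tendon depends on the transcription factor Scx. Thbs4 encodes a thrombospondin of tendon matrix, and Acan, Col9a1, Hapln1 and Snorc are genes of cartilage. Mdk and Ptn encode midkine and pleiotrophin, heparin-binding growth factors that are abundant in developing mesenchyme, and Mest and H19 are imprinted genes of embryonic and regenerating tissue. In the GRCm38 build Tnmd lies on the forward strand of chromosome X from 133850980 to 133865577, Mest on chromosome 6 from 30723547 to 30748465, Ptn on chromosome 6 from 36714929 to 36810220, Mdk on chromosome 2 from 91929805 to 91932297 and H19, a long noncoding RNA, on chromosome 7 from 142575529 to 142578143.

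The members were shallow cells with little Tnmd. Their median depth was 2267 UMIs, against 3483 UMIs over the 17407 cells with at least 10 Col1a1 UMIs, no Ptprc and a low mitochondrial share. Of the 499 members, 323 held 1 Tnmd UMI, 133 held 2 to 3, 30 held 4 to 7 and 13 held 8 or more, up to 27 in 1 cell. The 13 cells with 8 or more had a median depth of 12194 UMIs and carried 18.6% of all Tnmd UMIs of the members. The gate kept a larger share of shallow cells. It took 265 of the 5802 shallowest mesenchymal cells, or 4.57% (interval 4.04% to 5.14%), and 116 of the 5803 deepest (1.65% to 2.39%), although a Tnmd UMI was found in 14.1% to 16.0% of the former and 24.8% to 27.1% of the latter by their intervals. Cells with at most 1 UMI of the 4 cartilage genes made up 64.4% of the shallowest and 41.0% of the deepest cells.

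**Figure D1:**
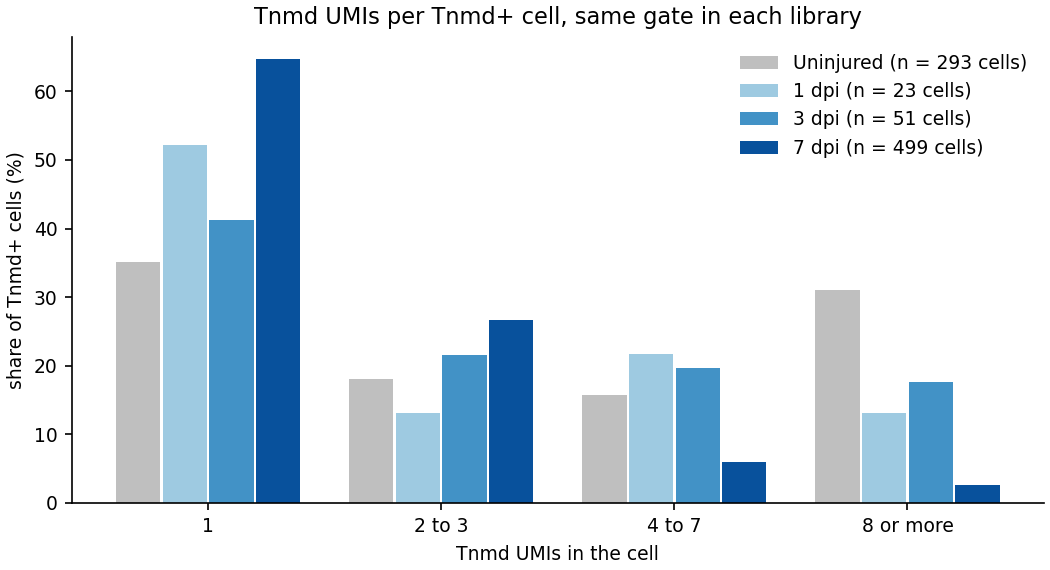
Share of the Tnmd+ cells of each library (percent, y axis) that held 1, 2 to 3, 4 to 7 or 8 or more Tnmd UMIs (x axis), with bars for the 4 libraries. At 7 dpi 64.7% of the cells held 1 Tnmd UMI and 2.61% held 8 or more, while in Uninjured muscle 35.2% held 1 and 31.1% held 8 or more, at median depths of 2267 and 11320 UMIs per cell and Tnmd levels, which the gate requires to be above 0, of 425 and 511 CPM.

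The Tnmd condition was met by some cells that should lack the gene. Of the 523 lymphocytes of the 7 dpi library, taken as cells with Ptprc and a UMI of Cd3e or Cd79a, 5.35% held a Tnmd UMI (interval 3.59% to 7.64%) at a median depth of 2237 UMIs. Among the 3957 cells that met every other condition of the gate, 12.6% held a Tnmd UMI (11.6% to 13.7%) at a median depth of 2257 UMIs. After each cell was thinned to 2000 UMIs, the shares were 4.32% of 301 lymphocytes (2.32% to 7.27%) and 8.11% of 2182 gated cells (7.00% to 9.34%), so that the intervals overlapped. With 3 or more Tnmd UMIs required, the shares were 1.15% of lymphocytes (0.422% to 2.48%) and 2.10% of gated cells (1.67% to 2.59%), again overlapping. Overlapping intervals do not show that shares were equal. Before thinning, the intervals for at least 1 Tnmd UMI did not overlap, and the difference was not tested. Summed over cells, Tnmd stood at 47.4 CPM (UMIs of the gene per 1000000 UMIs of the population) in lymphocytes and 53.8 CPM in the gated cells with and without Tnmd. The lymphocytes were not free of other mesenchymal RNA. Col1a1 was found in 77.8% of them, at 5084 CPM beside 13080 CPM in the members. Acan was 420 CPM in lymphocytes and 59.8 CPM in the members, where the gate limits it. Whether some lymphocytes were captured together with stromal cells was not tested, so their Tnmd share is not a clean background. The share of members with 1 Tnmd UMI that came from free RNA was not tested.

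Just outside the gate, 312 cells with 1 Thbs4 UMI and 89 cells with a cartilage sum of 2 met all other conditions. Tnmd was 557 CPM in the former and 464 CPM in the latter. The 196 members with a cartilage sum of 1 had 393 CPM, and the 323 members with 1 Tnmd UMI had 251 CPM.

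The label of this gate, a mesenchymal population marked by Tnmd, Mest, Mdk, Ptn and H19, was checked against the other populations of the library. All members held Tnmd by the rule, and the check rests on the other genes. Mest was found in 63.7% of them, Mdk in 53.9%, Ptn in 74.3% and H19 in 63.3%. Lymphocytes held the same genes less widely, with a Mest UMI in 22.4%, Mdk in 15.7%, Ptn in 17.6% and H19 in 21.6% of cells. Mest reached 638 CPM in the members (interval 605 to 671), 374 CPM in the 3458 Tnmd- cells that met every other condition (364 to 383), 686 CPM in 1076 Tnmd+ Thbs4+ cells, 705 CPM in 3909 cells with at least 10 cartilage gene UMIs, and 291 CPM in lymphocytes. The members thus lay above Tnmd- cells and lymphocytes and slightly below the other populations for Mest, but with at least 2 Tnmd UMIs required the log2 ratio of Mest was 0.05 against Thbs4+ cells and 0.17 against the cartilage gene cells. H19 gave the same order, with 642 CPM in the members, 427 CPM in Tnmd- cells, 714 CPM in Tnmd+ Thbs4+ cells, 984 CPM in the cartilage gene cells and 294 CPM in lymphocytes. Ptn was 1546 CPM in the members (1495 to 1598), 867 CPM in Tnmd- cells, 1242 CPM in Tnmd+ Thbs4+ cells, 543 CPM in the cartilage gene cells and 291 CPM in lymphocytes. Mdk was 403 CPM in the members, 271 CPM in Tnmd- cells, 353 CPM in Tnmd+ Thbs4+ cells, 315 CPM in the cartilage gene cells and 155 CPM in lymphocytes. Ptn was highest in the members among these 5 populations, also with at least 2 or 3 Tnmd UMIs and with a cartilage sum of 0. With that sum, however, its log2 ratio against Thbs4+ cells fell from 0.32 to 0.04. The rank of the other genes turned with the limits. With a cartilage sum of 0 the log2 ratio of Mdk was -0.13 against Thbs4+ cells and -0.02 against the cartilage gene cells, after thinning it was -0.13 against Thbs4+ cells, and with at least 2 Tnmd UMIs that of H19 was 0.13 against Thbs4+ cells.

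**Figure D2:**
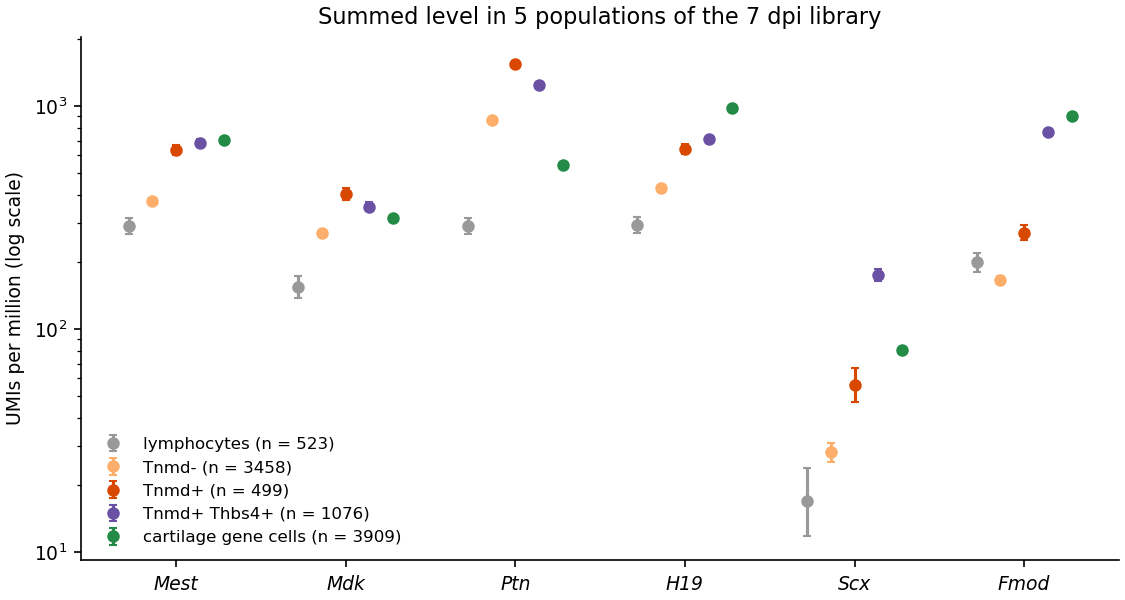
Summed level in CPM (y axis, log scale) of 6 genes in 5 populations of the 7 dpi library, with points for the level and bars for the 95% Poisson interval. Ptn was highest in the 499 Tnmd+ cells at 1546 CPM, while Scx was 56.3 CPM there and 174 CPM in the Tnmd+ Thbs4+ cells.

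The members did not form a cluster of their own. When the 17407 mesenchymal cells were clustered without the gate genes, the members lay in 23 of 29 clusters, and the largest group, 94 cells or 18.8%, lay in a cluster with a median depth of 1578 UMIs that was led by AY036118, Lars2 and Gm42418. A further 53 members lay in a cluster led by Cd74, Igha and H2-Aa, genes of antigen presenting and plasma cells. The cluster led by Rgs5 and Fabp4, genes of mural and endothelial cells, held 45, and the one led by Ccl5 and Nkg7, genes of cytotoxic lymphocytes, held 25. The cluster led by haemoglobin genes held 12. The gate therefore took in cells that carried RNA of other cell types, and whether these were doublets, free RNA or cells of those types was not tested. The 7.5% of cells with the highest Scrublet doublet scores included 36 members. Clustered alone (20 components, Leiden resolution 0.5), 211 members formed a group with a median depth of 1735 UMIs, and 109 members another with 1650 UMIs. Gm42418 stood at 71217 and 74562 CPM in these groups. Groups of 71, 94 and 14 members had median depths of 6436, 7542 and 8947 UMIs, with Gm42418 at 17021, 23120 and 20695 CPM. The part of this in the summed levels was not tested.

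Tnmd levels differed widely between clusters. A cluster of 1201 cells led by Penk, Ptn, Megf6, Tnmd, Mfap4 and Igfbp2 had Tnmd at 488 CPM (475 to 502) with a UMI in 36.1% of its cells, and it held 49 members. A cluster of 195 cells led by Kera, Cilp2 and Col22a1, with Scx and Tnmd among its leading genes, had Tnmd at 3026 CPM (2920 to 3135) with a UMI in 85.6% of its cells, but it held 11 members and 131 Tnmd+ Thbs4+ cells. Clusters led by genes of other cell types came next, at 426 CPM in 29 cells led by the neutrophil genes Camp and S100a8, with no member, at 258 CPM in 227 cells led by the endothelial genes Fabp4 and Pecam1, with 7 members, and at 205 CPM in the Cd74 cluster. Cells of the cluster led by Gzmd, Gzme and Actg2, with Scx also among its leading genes, had 176 CPM and included 28 members. Over all 17407 cells Tnmd was 160 CPM.

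**Figure D3:**
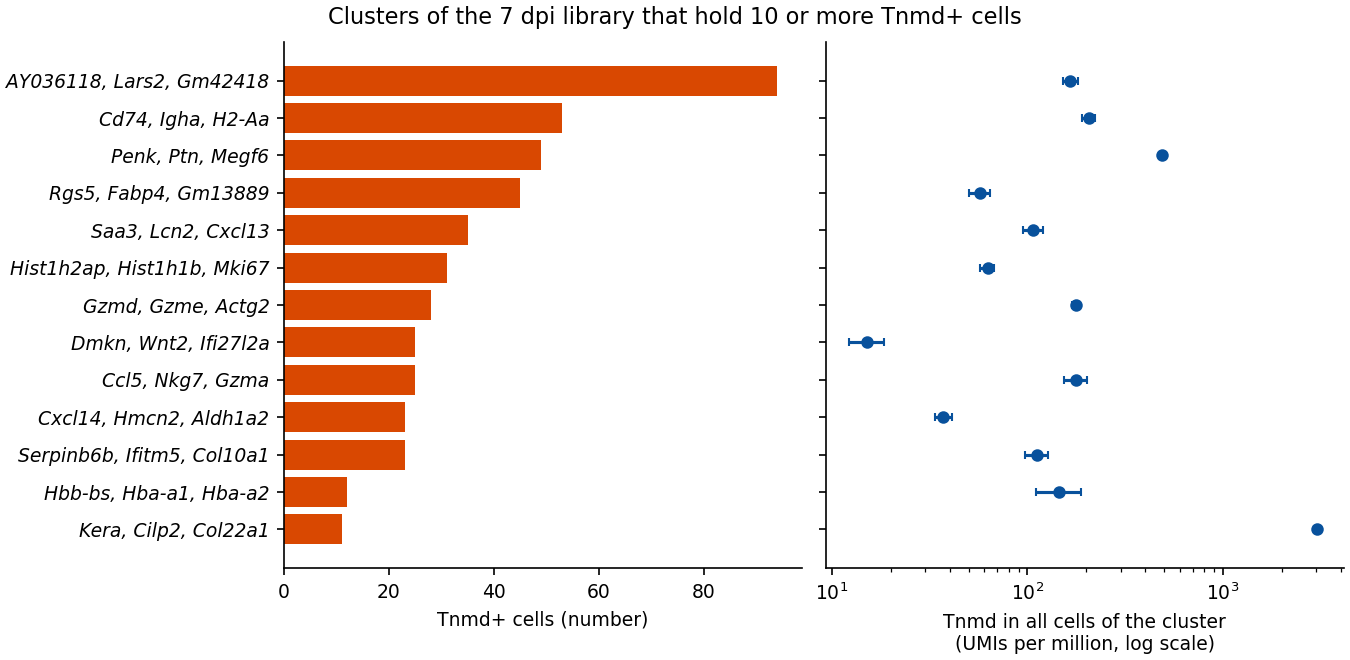
Number of Tnmd+ cells (left, x axis) and Tnmd level in all cells of the cluster in CPM with its 95% interval (right, log scale) for clusters with 10 or more Tnmd+ cells, 1 of them left out, each named by its 3 leading genes. The cluster with most Tnmd+ cells, 94, had Tnmd at 165 CPM, and the Kera and Cilp2 cluster reached 3026 CPM with 11.

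Within the Penk and Ptn cluster, where members and Tnmd- cells had median depths of 8861 and 6776 UMIs, the members differed little from its 176 Tnmd- cells in most of the marker genes. Ptn was 3678 CPM in the 49 members and 3638 CPM in the Tnmd- cells, a ratio of 1.01 (0.950 to 1.08). Mdk was 1065 and 1095 CPM, a ratio of 0.973 (0.866 to 1.09), and H19 was 1164 and 1253 CPM, a ratio of 0.929 (0.832 to 1.04). Mest was higher in the members, at 1770 against 1329 CPM, a ratio of 1.33 (1.21 to 1.46), and so was Penk, which encodes proenkephalin, at 513 against 373 CPM and a ratio of 1.37 (1.15 to 1.63). In the Gzmd and Gzme cluster the 28 members had more Mest, at 608 against 195 CPM, and more H19, at 813 against 294 CPM, than its 137 Tnmd- cells.

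The comparison of all members with the 3458 Tnmd- cells asked what else differed when only the Tnmd condition did. The depths of the populations were alike (medians of 2267 and 2256 UMIs). Tnmd- means that no Tnmd UMI was captured, and such cells were not shown to lack Tnmd RNA. After thinning, 163 of 279 members (58.4%) still held a Tnmd UMI. How many Tnmd- cells expressed Tnmd was not tested, here or in the other comparisons with Tnmd- cells. Of 6956 genes tested for size, 13 were at least 2-fold higher in the members (0.187%) and 53 at least 2-fold lower (0.762%). The filter admitted more genes that were lower than higher in the smaller population. Over the 6956 genes the interval lay above a ratio of 1 for 4.82% and below 1 for 11.5%, and it was narrower for abundant genes, so that small differences passed more often there. Over 5466 genes chosen by their pooled level, 12 were at least 2-fold higher and 21 at least 2-fold lower, and the median ratio was 0.974. Single cells set the size of several of the largest ratios. Igha, Igkc and Jchain, genes of plasma cells, had ratios of 37.3, 26.0 and 20.6, and 1 cell of 24971 UMIs held 90.0%, 86.4% and 83.4% of their UMIs in the members. Without that cell the ratios were 3.79 (3.33 to 4.30), 3.59 and 3.45. With at least 2 Tnmd UMIs, which leaves out all 323 members with 1 Tnmd UMI, that cell among them, the direction turned, with log2 ratios of -3.40, -3.73 and -4.29. The haemoglobin genes Hbb-bs, Hba-a1, Hba-a2 and Hbb-bt had ratios from 3.60 to 5.36, with Hbb-bs found in 30 members, and from 2.87 to 4.15 without the cell with most UMIs of each gene. The granzyme genes Gzmd and Gzme had ratios of 3.96 and 3.46, with 31.8% and 29.8% of their UMIs in 1 cell, and of 2.73 and 2.46 without it.

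Other higher genes were spread over more cells. Cpxm2, which encodes a carboxypeptidase-like protein, was 68.8 CPM in the members and 27.0 CPM in Tnmd- cells, a ratio of 2.54 (2.10 to 3.07). Megf6 was 56.7 and 22.8 CPM, a ratio of 2.48 (2.01 to 3.05). Scx, the transcription factor of tendon progenitors, was 56.3 and 28.0 CPM, a ratio of 2.01 (1.63 to 2.45), and it was found in 15.2% and 8.24% of cells. With weighting to the cluster composition of the members, no tendon transcription factor tested reached 2-fold, Scx included. Matn4, which encodes a matrilin, had a ratio of 1.88. The marker genes had ratios of 1.78 for Ptn (1.72 to 1.85), 1.71 for Mest (1.61 to 1.81) and 1.49 for Mdk (1.38 to 1.60), and the interval of H19 ran from 1.42 to 1.59, all under 2-fold. With Tnmd- cells weighted to the cluster composition of the members, the log2 ratio of Ptn went from 0.84 to 0.35, that of Mest from 0.77 to 0.44, that of H19 from 0.59 to 0.28 and that of Mdk from 0.57 to 0.14.

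Tendon matrix genes were modestly higher over all members, but not in order of Tnmd. They summed to 1899 CPM with 1 Tnmd UMI, 2374 CPM with 2 to 3, 1933 CPM with 4 to 7 and 1728 CPM with 8 or more (1553 to 1916), against 1687 CPM in Tnmd- cells. Of 9 tendon matrix genes tested, none reached 2-fold, 6 had an interval above a ratio of 1 and 2 had one below, and their median log2 ratio was 0.31 beside -0.12 over the 6956 genes. Comp, a cartilage and tendon matrix protein, was 242 CPM in the members and 136 CPM in Tnmd- cells. Fmod, which encodes the collagen-binding proteoglycan fibromodulin, was 271 and 166 CPM, and lymphocytes held 199 CPM. Htra3, a secreted protease, was lower in the members at 291 against 388 CPM. Of the other tendon transcription factors, Mkx gave 6 UMIs in the members and Egr1 was 813 against 952 CPM.

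Contractile genes were higher over all members, but not in each Tnmd class. All 5 tested had an interval above a ratio of 1, with a median log2 ratio of 0.72 and none at 2-fold. Tagln was 925 against 532 CPM, with 17.3% of its UMIs in 1 member, and Acta2 was 1618 against 1237 CPM. The list summed to 3902 CPM in members with 1 Tnmd UMI, 1860 CPM with 2 to 3, 8068 CPM with 4 to 7 and 5779 CPM with 8 or more, against 2786 CPM in Tnmd- cells, so that the 133 members with 2 to 3 lay below Tnmd- cells. Without the cell with most UMIs of the list in each class, the sums were 3165, 1779, 5427 and 4199.8 CPM, in the same order against Tnmd- cells. Pericyte genes were 1810 CPM in the 30 members with 4 to 7, where 1 cell held 345 of 370 UMIs, and 140.0 CPM without it. The pericyte genes, led by Rgs5, summed to 710 CPM in the members and 684 CPM in Tnmd- cells, and 1 member held 24.0% of the Rgs5 UMIs. The part of pericytes in the contractile genes was not tested.

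Genes of fibroblast progenitors were lower over all members. Clusters were made from the expression of the same cells, so the cluster shares and the weighting given next do not test why. The cluster led by Cxcl14 and Hmcn2, with Clec3b, held 4.61% of members and 10.9% of Tnmd- cells, and that led by Dmkn and Wnt2, with Pi16 and Dpp4, held 5.01% and 8.18%. With Tnmd- cells weighted to the cluster composition of the members, an alternative chosen after seeing the data, the median log2 ratio of the list was -0.11 beside -0.09 over all genes tested, and that of contractile genes was 0.48, of tendon matrix genes 0.22 and of cycling genes -0.26. Unweighted, of 13 tested, 11 had an interval below a ratio of 1, 1 was at least 2-fold lower and 1 had an interval above, with a median log2 ratio of -0.48 beside -0.12 over all genes tested. Col15a1, a basement membrane collagen, was 87.5 CPM in the members and 199 CPM in Tnmd- cells. Clec3b was 243 and 453 CPM, Pi16, a marker of adventitial fibroblasts, was 133 and 227 CPM, and Cd34 was 140 and 229 CPM. Cxcl12, a chemokine, was the exception at 275 and 231 CPM. The genes with the lowest ratios were Enpp2, the lysophospholipase autotaxin, at 7.59 and 33.1 CPM, the receptor tyrosine kinase gene Ret with a ratio of 0.268, and the chemokine gene Cxcl13 at 8.48 and 28.1 CPM. Of the Cxcl13 UMIs of the members, 57.9% were in 1 cell. Cycling genes summed to 508 against 743 CPM, with 8 of 11 tested below 1 by their interval, but the share of cells with at least 2 UMIs of the list was 34.1% of members and 32.1% of Tnmd- cells, and that with at least 5 UMIs was 9.62% and 12.4%.

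**Figure D4:**
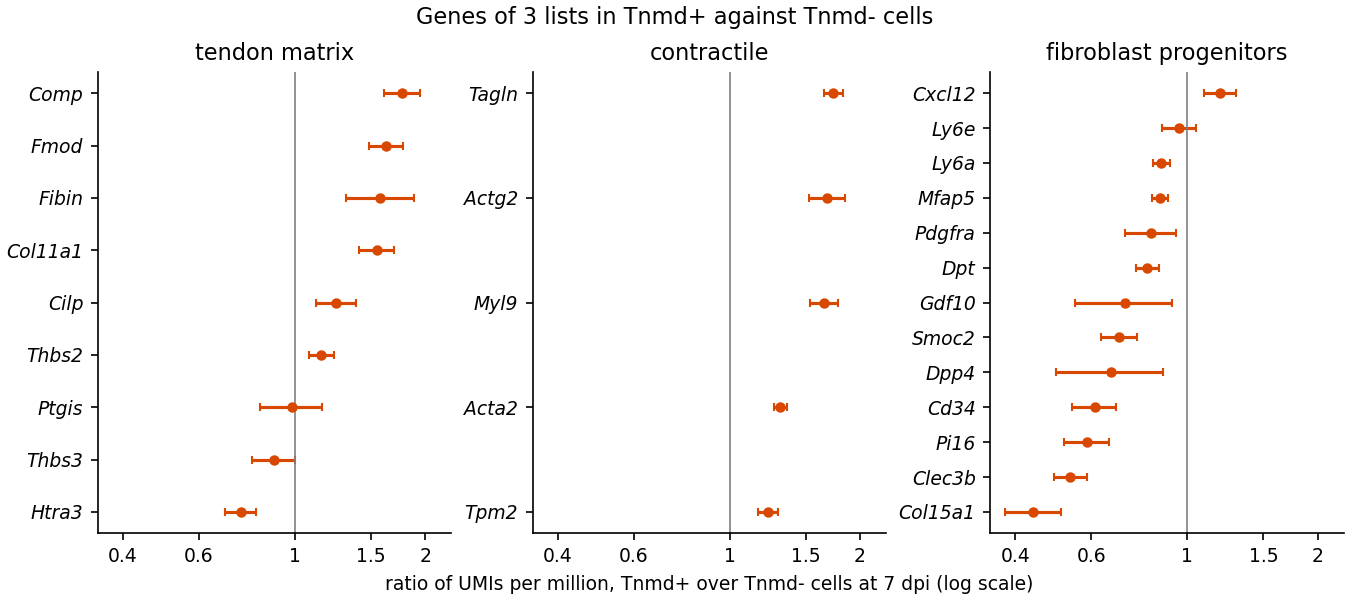
Ratio of CPM in Tnmd+ over Tnmd- cells at 7 dpi (x axis, log scale) with its 95% interval for each tested gene of 3 lists. Contractile genes all lay above 1, and 11 of 13 fibroblast progenitor genes lay below 1 with their intervals.

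Receptors of midkine and pleiotrophin were not higher as their ligands were. Of 10 genes of ligands and receptors tested, 2 had an interval above a ratio of 1 and 2 below. Lrp1, a receptor of both, was 288 CPM in the members and 351 CPM in Tnmd- cells, and Sdc2, a heparan sulfate proteoglycan, was 141 and 177 CPM. Ptprz1 gave 3 UMIs in the members and Alk gave 1, and neither reached the filter. Imprinted growth genes were mixed, with 6 of 15 tested above a ratio of 1 and 4 below by their intervals. Peg3 was 227 against 149 CPM and Cdkn1c, a cell cycle inhibitor, was 216 against 160 CPM, while the long noncoding RNA Meg3 was lower at 1644 against 1909 CPM.

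Matrix genes outside the tendon list moved in both directions and little. Of 12 fibrillar and associated collagens tested, 6 had an interval above a ratio of 1 and 5 below, none at 2-fold. Col12a1, a collagen of tendon and ligament fibrils, was 682 against 559 CPM, and Col5a3 was 272 against 445 CPM. Among 10 small leucine-rich proteoglycans tested, 5 had an interval above 1 and 2 below, with Aspn, which encodes asporin, at 1177 against 906 CPM and Dcn, which encodes decorin, at 2760.3 against 3269 CPM. Of 17 collagen processing genes tested, 2 had an interval above 1 and 7 below, among the former the cross-linking enzyme gene Lox at 607 against 531 CPM.

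The ratios of BMP response genes were near those of all genes. Both populations came from mice with the Bmp4 transgene, so these ratios do not bear on its effect. Of 6 BMP response genes tested, none had an interval above a ratio of 1 and 2 had one below, and their median log2 ratio of -0.14 was near the -0.12 of all genes. Id3, a direct target of BMP signalling, was 552 CPM in the members and 611 CPM in Tnmd- cells, and Bmp4 itself was 20.1 and 31.2 CPM. Of 11 TGF-beta genes tested, 3 had an interval above 1 and 2 below. The ligand gene Tgfb3 was 109 against 78.9 CPM and Ltbp2, a microfibril-associated protein, 91.5 against 55.8 CPM, while Tgfb2 was 62.1 against 82.4 CPM. None of 5 hedgehog genes and none of 3 limb position genes tested had an interval off 1. In the Fgf list 1 of 5 lay above and 1 below, and in the Igf list 2 of 7 lay above and 2 below, with the growth factor gene Igf1 at 753 against 585 CPM and Igfbp6 at 438 against 737 CPM. Cnmd, the gene most like Tnmd and also with a BRICHOS domain, was 9.38 against 15.3 CPM. Of 10 chondrogenic genes 4 lay above 1 and 2 below, of 6 osteogenic genes 1 lay below, of 9 injury mesenchyme genes 4 lay above, and of 8 immediate early genes 6 lay below, none of them at 2-fold. The median log2 ratio of the immediate early genes was -0.14, near that of all genes.

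Markers of other cells were present in both populations. Pericyte genes, given above, were above the level of Mest, and erythroid genes, led by Hbb-bs, summed to 591 CPM in the members and 119 CPM in Tnmd- cells. Endothelial genes summed to 12.9 and 13.3 CPM. Des, a gene of muscle cells, was 56.7 CPM in the members and 83.5 CPM in Tnmd- cells. Leukocyte genes summed to 306 and 255 CPM, although Ptprc was 0 by rule. Their part in the differences was not tested.

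Levels by Tnmd count rested in part on single cells. Ptn was 1359 CPM in cells with 1 Tnmd UMI, 1332 CPM with 2 to 3, 2417 CPM with 4 to 7 and 2406 CPM with 8 or more. H19 was 532, 749, 758 and 924 CPM in the same classes, and Mdk was 358, 464, 465 and 462 CPM. In the class with 8 or more, 1 of the 13 cells held 50.6% of the Ptn UMIs. Without the cell with most UMIs of the gene in each class, Ptn was 1171, 1185, 1688 and 1374 CPM, H19 was 510.4, 683, 634 and 703 CPM, and Mdk was 343, 426, 405 and 373 CPM. The interval of H19 without these cells was 472 to 551 CPM in the class with 1, below those of the classes with 2 to 3 and with 8 or more but overlapping that with 4 to 7 (527 to 756 CPM). After thinning, the share of cells with H19 was 53.8%, 66.2%, 52.4% and 61.5% over the classes, with no order. Mest was 472, 710, 678 and 562 CPM without the cell with most in each class. Its interval in the class with 1 was 435 to 511 CPM. The intervals with 2 to 3 and with 4 to 7 lay above this, while that with 8 or more overlapped it (458 to 683 CPM). After thinning, Mest was found in 50.3%, 62.2%, 52.4% and 46.2% of cells, with no order. Scx was 54.3, 44.5, 53.8 and 101 CPM over the classes, from 70, 24, 11 and 21 UMIs, and 46.6, 41.1, 33.1 and 69.1 CPM without the cell with most in each, with overlapping intervals. After thinning to 2000 UMIs, the share of cells with Ptn was 66.7%, 71.6%, 71.4% and 69.2% over the classes, with 171, 74, 21 and 13 cells, and thus showed no order. Rgs5 was 1673 CPM in the class with 4 to 7 Tnmd UMIs, where 1 cell held 324 of 342 UMIs, and 101 CPM without that cell.

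The comparison with Tnmd+ Thbs4+ cells set the members beside the cells that failed the gate by Thbs4 alone, which were deeper (median 3403 UMIs). Of 4942 genes tested, 23 were at least 2-fold higher in the members (0.465%) and 25 at least 2-fold lower (0.506%). Genes of mature tendon were among the lower ones. The cells were split by Thbs4, itself a gene of tendon matrix, so nothing is read from this difference. Tnmd was 425 CPM in the members and 857 CPM in the Tnmd+ Thbs4+ cells. Kera, which encodes keratocan, was 9.38 CPM in the members and 146 CPM in Tnmd+ Thbs4+ cells, a ratio of 0.0640 (0.0394 to 0.0985). Cilp2 was 8.04 and 79.5 CPM and Cilp 185 and 744 CPM. Of 11 tendon matrix genes tested, 5 were at least 2-fold lower and 9 had an interval below 1, beside 9.63% of all genes tested with an interval below 1 and 8.32% above, while Htra3 was higher at 291 against 184 CPM and Comp had a ratio of 1.07 (0.965 to 1.18). Scx was 56.3 and 174 CPM, a ratio of 0.323. Higher in the members were Rgs5, at 603 against 100 CPM with 24.0% of its UMIs in 1 cell, the fatty acid binding protein gene Fabp4, at 224 against 35.6 CPM, and the haemoglobin genes Hbb-bs and Hba-a1. Igha, Igkc and Jchain were higher too, with ratios of 12.6, 8.82 and 7.24. However, 1 member held 90.0%, 86.4% and 83.4% of their UMIs in the members, so that these ratios rest largely on that cell. With at least 2 Tnmd UMIs their log2 ratios were -2.22, -2.66 and -3.51.

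Against the cartilage gene cells, 222 of 5767 genes tested were at least 2-fold higher in the members (3.85%) and 247 at least 2-fold lower (4.28%). Cartilage genes were part of the rule for both populations, and nothing is read from their difference. All 13 chondrogenic genes tested were at least 2-fold lower, and since the cells were split by cartilage genes, nothing is read from this either. Among them was Col2a1, the main collagen of cartilage, at 137 against 11302 CPM. All 7 osteogenic genes tested were at least 2-fold lower too. Ibsp, a bone sialoprotein, was 192 CPM in the members, 254 CPM in Tnmd- cells and 1128 CPM in lymphocytes. Of 11 fibroblast progenitor genes tested, 9 were at least 2-fold higher in the members. Ptn had a ratio of 2.85 (2.75 to 2.95), Mdk of 1.28 (1.19 to 1.37), Mest of 0.904 (0.856 to 0.954) and H19 of 0.652 (0.618 to 0.688).

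The same gate found 293 cells in Uninjured muscle, 23 at 1 dpi and 51 at 3 dpi. Of all cells with the other conditions, 3.97% held a Tnmd UMI in Uninjured muscle at a median depth of 9405 UMIs, 1.37% at 1 dpi, 2.61% at 3 dpi and 12.6% at 7 dpi. Among lymphocytes the shares were 1.27%, 0.294%, 0.468% and 5.35% in the same order, so that they too were highest at 7 dpi. The share with 3 or more Tnmd UMIs was 2.20% in Uninjured muscle (1.87% to 2.56%) and 2.10% at 7 dpi (1.67% to 2.59%), at unlike depths. After thinning to 2000 UMIs, a Tnmd UMI was found in 2.02% (1.71% to 2.37%) and 8.11% (7.00% to 9.34%), beside 0.852% and 4.32% of lymphocytes. The 23 cells at 1 dpi were too few to compare. Of the barcodes of the members, 4 were also found at 1 dpi, 3 at 3 dpi and none in Uninjured muscle.

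Many genes differed in level between the 7 dpi members and the Uninjured cells of the same gate. Of 4223 genes tested, 331 were at least 2-fold higher at 7 dpi (7.84%) and 511 at least 2-fold lower (12.1%), with median depths of 2267 and 11320 UMIs. Tnmd itself, which the gate required, was 425 CPM in the members and 511 CPM in the Uninjured cells, and without the Tnmd condition it was 53.8 CPM at 7 dpi and 25.3 CPM in Uninjured muscle. Ptn was 1546 CPM at 7 dpi, 171 CPM at 3 dpi and 24.4 CPM in Uninjured muscle, a ratio of 63.3 between 7 dpi and Uninjured (51.3 to 79.1). Mest was 638 CPM at 7 dpi, 9.26 CPM at 3 dpi and 29.4 CPM in Uninjured muscle. Mdk was 403, 23.1 and 42.3 CPM and H19 was 642, 89.5 and 144 CPM in the same order. All 4 genes were thus highest at 7 dpi. In Tnmd- cells the ratio of 7 dpi to Uninjured was 65.9 for Ptn, 8.78 for Mest, 4.11 for Mdk and 9.95 for H19, beside 63.3, 21.7, 9.53 and 4.45 in the Tnmd+ cells.

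**Figure D5:**
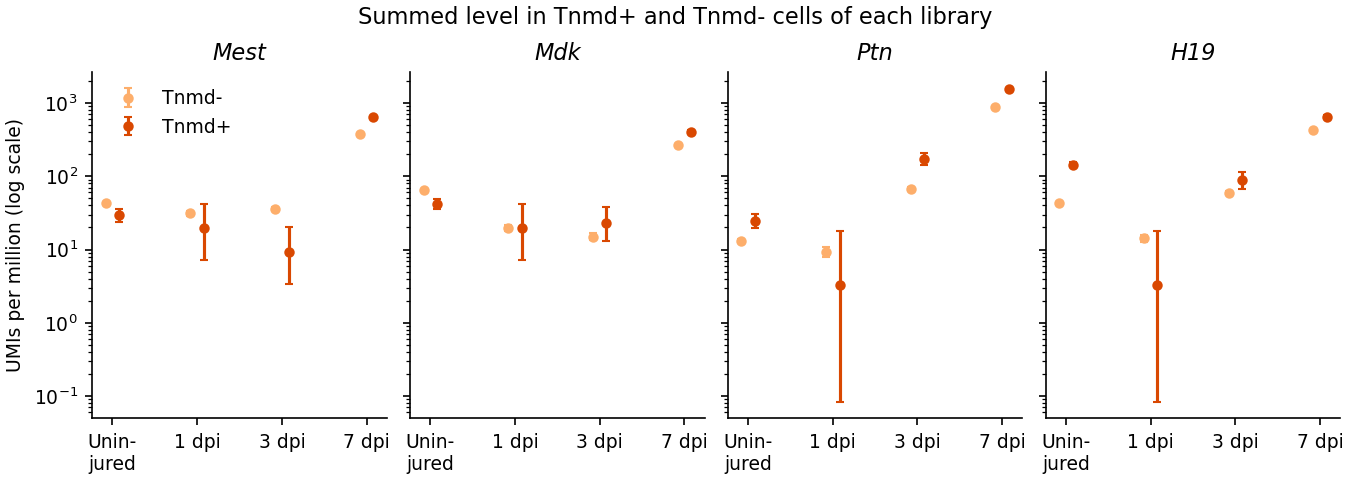
Summed level in CPM (y axis, log scale) of 4 genes in Tnmd+ and Tnmd- cells of the 4 libraries (x axis), with points for the level and bars for the 95% Poisson interval. All 4 genes were highest at 7 dpi in both populations, with Ptn at 1546 CPM in Tnmd+ and 867 CPM in Tnmd- cells.

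Genes of the injury mesenchyme were higher at 7 dpi, with all 7 tested above a ratio of 1 by their intervals, beside 34% of all genes tested, and 5 at least 2-fold. Cthrc1, a secreted collagen triple helix protein, was 1125 against 34.6 CPM, the metalloprotease gene Adam12 95.1 against 3.29 CPM, and Postn, the matricellular protein periostin, 3008 against 413 CPM. C1qtnf3 was 483 against 7.96 CPM, and Comp was 242 against 8.50 CPM. In Tnmd- cells Cthrc1 had a ratio of 21.0, Adam12 of 13.7, Postn of 7.86 and C1qtnf3 of 93.9. Fibroblast progenitor genes were lower, 11 of 13 tested at least 2-fold, and so were 7 of 8 immediate early genes, which respond to tissue dissociation as well as to stimuli in the tissue. The lowest ratio was that of Myoc, which encodes myocilin, at 29.0 against 2623 CPM. Gsn, which encodes the actin-severing protein gelsolin, was 717 against 15924 CPM, and Igfbp3, an IGF binding protein, had a ratio of 0.0448. In Tnmd- cells the ratios were 0.0841 for Myoc, 0.0964 for Gsn and 0.226 for Igfbp3, so that these genes were lower there too. Markers of other cells moved with these values, since leukocyte genes summed to 306 CPM at 7 dpi and 11.2 CPM in Uninjured muscle, pericyte genes to 710 and 36.5 CPM and erythroid genes to 591 and 36.5 CPM. Their part in the result was not tested.

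The ratio of Tnmd+ to Tnmd- cells varied between libraries for some genes, and this variation was not tested. Fmod had a ratio of 16.4 in Uninjured muscle (14.4 to 18.6), 7.45 at 3 dpi (5.71 to 9.61) and 1.63 at 7 dpi (1.49 to 1.78). In Uninjured muscle Fmod was 128 CPM in Tnmd+ and 7.84 CPM in Tnmd- cells. Cpxm2 had ratios of 7.38, 3.15 and 2.54 in the same libraries. Scx had a ratio of 11.1 in Uninjured muscle (5.45 to 21.7), from 15 UMIs in Tnmd+ cells, and 2.01 at 7 dpi. Fmod and Scx thus had larger ratios in Uninjured muscle than at 7 dpi, while Comp had ratios of 0.953 in Uninjured muscle (0.642 to 1.37), 5.55 at 3 dpi and 1.77 at 7 dpi. Mest had ratios of 0.690 in Uninjured muscle (0.563 to 0.837), 0.258 at 3 dpi (0.0942 to 0.563) and 1.71 at 7 dpi, and Mdk had ratios of 0.642, 1.55 (0.856 to 2.59) and 1.49. Ptn and H19 were above 1 in every library compared, with ratios of 1.86 in Uninjured muscle, 2.55 at 3 dpi and 1.78 at 7 dpi for Ptn, and of 3.36 in Uninjured muscle and 1.52 at 3 dpi for H19.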

How the data were processed

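The authors processed 4 droplet libraries with Cell Ranger 5.0.0 and STAR, and deposited raw UMI counts per gene and cell. Per the labels the build was mm10 and Seurat 3.1.1 was also used, and reads were down-sampled as required. Whether the deposited counts precede this is not stated in the sources used here. Depth differed between libraries. Uninjured muscle gave 112317902 UMIs (median 8629 a cell), 1 dpi 91146335 (5562), 3 dpi 116346301 (4214) and 7 dpi 129007669 (3083). Members and gene lists were chosen with earlier results of these data known.

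Counts were summed over the cells of a population and given as CPM with exact Poisson intervals. Ratios carry conditional binomial intervals and shares Clopper-Pearson intervals, all at 95%. Genes were tested for size with at least 100 UMIs in the population with the higher CPM and 10 in the other, gate genes left out, and were counted from 2-fold. No p-value was computed. Named genes were the markers, the genes of the lists, and the 15 (Tnmd+ against Tnmd-) or 8 (other comparisons) with the largest ratios in each direction, without mitochondrial, Gm and Rik models. Penk and the leading genes of clusters were named after their values were seen.

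Clusters came from scanpy 1.11.5 and igraph 0.11.9 (2000 variable genes, 30 components, 15 neighbours, Leiden resolution 1), and leading genes from CPM ratios with a pseudocount of 10. Clusters were not named as cell types, and no doublets were removed. On simulated counts for Tnmd+ against Tnmd- cells with 200 of 5466 genes changed, the interval held the true ratio for 95.7% of genes at 2-fold, and 49.5% of changed genes passed the 2-fold limit, which lies at the true value. The simulated sums were Poisson draws, the model that the interval assumes, and held no variation between cells. This coverage therefore checks the calculation only and says nothing about spread between cells. Positions are from GENCODE release M21 (99.6% of gene identifiers matched). Alternatives were the Tnmd, cartilage, mitochondrial, depth and doublet limits, thinning, scaling, weighting and filters. A gene and the cluster it led are not reported here.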

Additional observations from a re-analysis of the deposited data

Results flagged for a closer look

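In 6 of the named genes the ratio of Tnmd+ to Tnmd- cells was at least 2-fold in opposite directions in 2 libraries, with both intervals off 1 and with at least 100 UMIs in 1 population and 10 in the other in each library. Igkc met all but the UMI minimum, with ratios of 26.0 at 7 dpi and 0.201 in Uninjured muscle. The Uninjured value came from 5 UMIs in the Tnmd+ cells. At 7 dpi 1 cell held 86.4% of the Igkc UMIs of the Tnmd+ cells, and the ratio was 3.59 without it. With at least 2 Tnmd UMIs the log2 ratio of Igkc at 7 dpi was -3.73. The difference between libraries itself was not tested, since each time point was 1 library. Myoc had a ratio of 0.412 at 7 dpi, against 3.13 in Uninjured muscle and 4.17 at 3 dpi. Cxcl13 had a ratio of 0.302 at 7 dpi and 2.23 at 3 dpi, and 57.9% of its UMIs in the 7 dpi Tnmd+ cells were in 1 cell. The 4 haemoglobin genes were higher in Tnmd+ cells at 7 dpi and lower in Uninjured muscle. Hbb-bs had ratios of 5.36 and 0.180, Hba-a1 of 4.18 and 0.235, Hba-a2 of 4.01 and 0.150, and Hbb-bt of 3.60 and 0.136. At 7 dpi, 17 of the 499 Tnmd+ cells held 2 or more UMIs of the erythroid list.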

How the results depend on the processing

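No paired analysis was possible because each group was 1 library, and for the same reason no replicate could be left out. Of 1087 values of named genes under the alternatives, 1059 kept the direction and 28 did not, and 17 of the 28 were at least 2-fold in the report. The number of Tnmd+ cells was 176 with at least 2 Tnmd UMIs, 83 with at least 3 and 303 with a cartilage sum of 0, and 429 to 482 under the mitochondrial, depth and doublet limits. In what follows, counts are of genes at least 2-fold higher or lower in the 7 dpi Tnmd+ cells, against Tnmd- cells, Tnmd+ Thbs4+ cells, cartilage gene cells and Uninjured Tnmd+ cells, and those not given were within 1.5 times the count in the report. With at least 2 Tnmd UMIs, 95 were lower against Tnmd- cells, 13 higher and 46 lower against Thbs4+ cells, 97 higher against cartilage gene cells and 178 higher against Uninjured. With at least 3, 7 were higher and 86 lower, 13 higher and 51 lower, 55 higher and 122 lower, and 121 higher. These limits left out the 323 cells with 1 Tnmd UMI, among them the cell richest in Igha, Igkc and Jchain, and the log2 ratios of these genes turned negative, while without that cell alone they did not turn. Against Tnmd- cells they were -3.40 and -3.04 for Igha, -3.73 and -4.71 for Igkc, and -4.29 and -3.52 for Jchain, and Myh11 was -0.28 with at least 2. Against Thbs4+ cells they were -2.22 and -2.29 for Igha, -2.66 and -4.03 for Igkc, and -3.51 and -3.19 for Jchain. Against cartilage gene cells they were -3.40 and -4.37 for Igkc and -2.70 and -1.93 for Jchain. A cartilage sum of 0 gave 7 higher against Tnmd- cells and 194 higher against Uninjured, and a limit of 2 SD on depth gave 15 higher against Thbs4+ cells. Thinning, which leaves fewer UMIs, gave 5 higher against Tnmd- cells, 7 higher against Thbs4+ cells, 55 higher and 107 lower against cartilage gene cells, and 108 higher and 189 lower against Uninjured. The mean over cells of CPM gave 189 lower against Tnmd- cells, 13 higher and 38 lower against Thbs4+ cells and 115 higher against cartilage gene cells. A minimum of 30 UMIs gave 22 higher, 75 higher and 61 lower, 485 higher and 766 higher in the order of the comparisons. With only 1 UMI asked of each population, the counts were 1073 higher and 596 lower, 1135 and 624, 2451 and 746, and 2301 and 1356. At 1.5-fold they were 42 and 395, 67 and 161, 423 and 619, and 746 and 919, and at 4-fold 6 and 1, 8 and 5, 37 and 69, and 95 and 144. Alternatives chosen after seeing the data were a filter on the pooled level, with 21 lower against Tnmd- cells, weighting to cluster composition, with 8 higher and 29 lower, and leaving out the cell with most UMIs of a gene, which turned no direction. Why counts moved was not tested beyond the number of cells and UMIs left. Low UMI counts limited the 3 dpi values, with 6 Mest and 2 Scx UMIs in 51 cells.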
